A study of Homo sapiens with 26 samples.

Results

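The transcripts of 10 genes were followed in MDA-MB-468 cells in which Notch signalling was blocked or stimulated. They were both caveolins of this list, CAV1 and CAV2, and 8 genes tied to the transcriptional co-activator YAP, namely CCN1 (CYR61), CCN2 (CTGF), ANKRD1, AMOTL1, AMOTL2, AJUBA, LATS2 and TEAD1. They were chosen by name, with earlier results of these data known, among 19775 genes that could be named on the array. The gene lists set beside them were chosen so too. Counts of passing genes beside the shares of all genes are therefore descriptions, not independent tests. Each of the 10 was read from its brightest probe set with a single gene name. Caveolins form the coat of caveolae, small pits of the plasma membrane that flatten when the membrane is stretched. YAP and its relative TAZ (gene WWTR1) enter the nucleus when the kinases of the Hippo pathway are inactive, bind TEAD factors there and turn on genes such as CCN1 and CCN2, and stiff surroundings, stretch and cell spreading favour that state. Several of the listed genes (LATS2, AMOTL1, AMOTL2, AJUBA) encode proteins that act back on YAP or on its kinases.

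MDA-MB-468 is an established human line from a triple-negative, basal-type breast tumour, and 26 Affymetrix HG-U133 Plus 2.0 arrays of it formed 2 experiments. In the antagonism experiment, cells grown for 40 h were treated for 24 h with 10 µg/ml of the NOTCH3 antibody A4 plus 0.05% DMSO (2 arrays), with 5 µM DAPT plus 10 µg/ml of the anti-gD control IgG (3 arrays), or with 10 µg/ml control IgG plus 0.05% DMSO (3 arrays). DAPT inhibits gamma-secretase, the protease that releases the active part of all Notch receptors. In the agonism experiment (3 arrays a group), cells were held for 16 h in 5 µM DAPT, washed, and left for 2 h in plain medium. They then received JAG1-Fc coated beads, Fc coated beads, 20 µg/ml of the NOTCH3 antibody A13, 20 µg/ml control IgG, or 5 µM DAPT again, and were harvested after 24 h. JAG1 is a Notch ligand, and the doses of beads are not given. A DMSO group had 0.05% DMSO in place of DAPT throughout, and DMSO or DAPT was added once more after 22 h to the groups that held it. All agonism groups except DMSO had therefore had the inhibitor before, and the IgG, antibody and bead groups are washout groups.

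Intensities are given on the log2 scale, and each change is a difference of group means in log2 units with its standard error, tested with limma in one fit per experiment. A gene passed at a Benjamini-Hochberg adjusted p under 0.05 over all 19775 genes. Array medians were 7.60 to 7.65 for antagonism and 6.84 to 6.88 for agonism, so levels were compared within an experiment only. NOTCH3, MYC and HES1, known to follow Notch activity, served as a check of the treatments. All 3 fell with A4 and, in both experiments, with DAPT, and rose with A13 over IgG. All 3 also rose in the IgG washout group, over continued DAPT and over DMSO. With JAG1-Fc beads over Fc beads MYC and HES1 rose and NOTCH3 did not pass. DAPT lowered MYC by 1.34 in the antagonism experiment and by 1.21 in the agonism experiment, and A13 raised it by 1.33 over IgG. EGFR, KRT18 and EPCAM, markers of this line, were at percentile 98.7 of all genes or above in every group. The progesterone receptor PGR stayed at percentiles 16.8 to 19.5, the leukocyte gene PTPRC at 6.8 to 12.4, and the fibroblast gene LUM at 1.7 to 2.8. Probe brightness also sets such ranks, and these genes are only some of the markers listed. With DAPT over DMSO, 3 of 6 measured markers listed for this line rose and 2 fell (KRT14, KRT5, CDH3, KRT18 and EGFR, ordered by size of change in either direction). The receptor genes ESR1 and ERBB2, listed with PGR, rose there and fell with A13 over IgG. Of 12 markers of fibroblasts, leukocytes and endothelium, only CD14 and CDH5 passed in any of the 11 comparisons between groups. Separate cultures within a group are not stated in the labels, which mention 1 DMSO plate, so p-values measure only the spread between these arrays and that spread may be technical. The cells were measured in bulk, so fewer cells with a transcript and less of it per cell cannot be told apart.

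The promoter windows below are shown because TEAD factors, through which YAP acts, bind a short known motif. RefSeq windows (GRCh38.p14) of 300 bases, running from 250 bases before a transcript's start to 50 after it, were at hand for 8 of the 10 genes, 13 windows in all, and CCN1 and TEAD1 had none. Both strands were searched for the TEAD core GGAATG, the RBPJ core TGGGAA through which Notch acts, the AP-1 site TGANTCA, and the CArG box of serum response factor. The TEAD core was found in 5 of the 13 windows, 1 each of CCN2, ANKRD1, AMOTL2, AJUBA and LATS2, and in 14% of all 35116 windows (4928). It stood 3 times in the CCN2 window (first bases at -169, -104 and -95 from the start), at -220 and -128 in ANKRD1, at -69 on the opposite strand in AMOTL2, at -59 in AJUBA and at 9 in LATS2. The ANKRD1 window also held the RBPJ core (24.0% of all windows) on the opposite strand at -146 and -68, and an AP-1 site (7.71% of all windows) at -195. No match overlapped another. The CArG box was in 1.29% of all windows and in none of these. The windows of CAV1 (3), CAV2 (2) and AMOTL1 (1) held none of the 4 motifs, which says only that these letters are not in these stretches. A match is a description of the sequence, not a binding site. The 5 windows with the TEAD core follow, 5′ to 3′ on the gene's strand, with every match in capitals.
CCN2 (chr6:131951323-131951622, minus strand): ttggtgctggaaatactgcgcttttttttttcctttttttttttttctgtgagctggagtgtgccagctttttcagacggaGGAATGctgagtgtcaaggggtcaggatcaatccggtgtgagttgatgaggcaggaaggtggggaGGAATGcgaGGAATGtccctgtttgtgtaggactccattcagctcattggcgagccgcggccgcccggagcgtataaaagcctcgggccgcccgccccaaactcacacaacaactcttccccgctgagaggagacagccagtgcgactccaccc
ANKRD1 (chr10:90921038-90921337, minus strand): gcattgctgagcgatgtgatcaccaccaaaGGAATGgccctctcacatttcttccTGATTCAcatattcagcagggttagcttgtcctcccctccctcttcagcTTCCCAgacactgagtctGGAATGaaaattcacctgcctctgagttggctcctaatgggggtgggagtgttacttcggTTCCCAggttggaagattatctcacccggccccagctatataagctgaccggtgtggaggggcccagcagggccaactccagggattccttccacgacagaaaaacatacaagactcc
AMOTL2 (chr3:134374398-134374697, minus strand): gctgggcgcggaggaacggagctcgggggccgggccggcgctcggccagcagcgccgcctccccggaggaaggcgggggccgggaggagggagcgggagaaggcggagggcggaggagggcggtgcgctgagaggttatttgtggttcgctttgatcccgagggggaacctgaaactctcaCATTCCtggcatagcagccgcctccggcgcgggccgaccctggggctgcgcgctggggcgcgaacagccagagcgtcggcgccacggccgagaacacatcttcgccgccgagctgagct
AJUBA (chr14:22976793-22977092, minus strand): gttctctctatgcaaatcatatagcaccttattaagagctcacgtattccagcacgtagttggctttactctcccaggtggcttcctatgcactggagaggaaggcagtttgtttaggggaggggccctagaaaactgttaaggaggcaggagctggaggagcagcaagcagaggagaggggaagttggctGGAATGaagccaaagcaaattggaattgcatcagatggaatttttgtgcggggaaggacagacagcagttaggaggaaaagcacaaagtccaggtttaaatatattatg
LATS2 (chr13:21061537-21061836, minus strand): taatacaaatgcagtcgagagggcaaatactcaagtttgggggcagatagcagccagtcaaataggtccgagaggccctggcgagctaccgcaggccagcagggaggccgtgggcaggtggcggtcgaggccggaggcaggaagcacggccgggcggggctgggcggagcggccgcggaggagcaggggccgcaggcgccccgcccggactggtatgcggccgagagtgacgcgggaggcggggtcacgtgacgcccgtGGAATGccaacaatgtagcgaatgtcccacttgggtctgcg

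CAV1, the main structural protein of caveolae, was the caveolin with the wider range. In the agonism experiment its log2 intensities were 10.28, 10.28 and 10.38 with JAG1-Fc beads, 10.35, 10.12 and 10.05 with Fc beads, 10.07, 10.12 and 10.08 with A13, and 9.65, 9.85 and 9.73 with IgG. They were 10.41, 10.36 and 10.40 in DAPT and 10.89, 10.59 and 10.74 in DMSO. The 3 IgG arrays were the lowest of all 18 and the 3 DMSO arrays the highest, and neither group overlapped any other. CAV1 fell by 0.35 ± 0.08 with DAPT relative to DMSO (adjusted p = 0.00427). It fell further on washout into IgG, by 0.64 ± 0.08 relative to continued DAPT (adjusted p = 3.62e-05), so the IgG washout group lay farther from DMSO than the DAPT group did. That comparison also differs in IgG, which only the washout group received. Relative to the IgG washout group it was higher with Fc beads (0.42 ± 0.08, adjusted p = 0.00865) and with A13 (0.34 ± 0.08, adjusted p = 0.00637). It stayed lower with A13 than in continued DAPT (-0.30, adjusted p = 0.00792). JAG1-Fc beads and Fc beads differed by 0.14 ± 0.08 (95% confidence interval -0.03 to 0.31, adjusted p = 0.341). The Fc bead call was lost without IgG array 1 (adjusted p = 0.0655) or Fc bead array 1 (adjusted p = 0.0631), while the DAPT, washout and A13 calls held with each array left out.

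CAV2, which assembles with CAV1 and whose gene lies beside it on chromosome 7, moved over a narrower range. Its log2 intensities were 11.69, 11.59 and 11.87 with JAG1-Fc beads, 11.74, 11.71 and 11.59 with Fc beads, 11.80, 11.78 and 11.73 with A13, and 11.53, 11.55 and 11.46 with IgG. They were 11.86, 11.80 and 11.79 in DAPT and 12.20, 11.83 and 12.18 in DMSO. As for CAV1, all 3 IgG arrays lay below every other array, while DMSO array 2 lay within the DAPT arrays. CAV2 fell by 0.31 in IgG relative to DAPT (SE 0.09, adjusted p = 0.0315) and by 0.56 relative to DMSO. The first of these calls was lost with any of the 6 arrays left out (adjusted p between 0.0582 and 0.115). DAPT over DMSO was -0.25 (adjusted p not under 0.05), and this difference passed without DMSO array 2 (adjusted p = 0.00156). A13 over IgG was 0.26 ± 0.09 (adjusted p = 0.0532), JAG1-Fc over Fc beads 0.03 ± 0.09, and Fc beads over IgG 0.17 (adjusted p = 0.387).

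In the antagonism experiment CAV1 was the member that passed. It had 10.95 and 10.90 with A4, 11.05, 11.02 and 10.91 with DAPT, and 11.54, 11.80 and 11.90 in control cells. Every treated array lay below every control array. The fall was 0.82 ± 0.11 with A4 (adjusted p = 0.0373) and 0.76 ± 0.10 with DAPT (adjusted p = 0.0203), and both use the same 3 control arrays. The second CAV1 probe set gave -0.52 ± 0.09 with A4 (adjusted p = 0.253) and -0.57 ± 0.08 with DAPT (adjusted p = 0.0709) in a fit over all single-gene probe sets, where the brightest had adjusted p = 0.0997 with A4 and 0.0507 with DAPT, so neither probe set passed there. A4 and DAPT differed by -0.06 ± 0.11 (95% confidence interval -0.30 to 0.18). The DAPT call was lost without any of the DAPT arrays (adjusted p between 0.0766 and 0.132), and the A4 call without either A4 array (0.363 and 0.528, the lone array then taken to vary like the other groups) or control array 3 (0.0861). CAV2 had 11.95 and 11.91 with A4, 12.10, 12.13 and 12.02 with DAPT, and 12.23, 12.38 and 12.30 in control cells. These CAV2 groups did not overlap one another, but neither -0.37 ± 0.08 with A4 (adjusted p = 0.133) nor -0.22 ± 0.07 with DAPT (adjusted p = 0.206) passed.

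**Figure D1:**
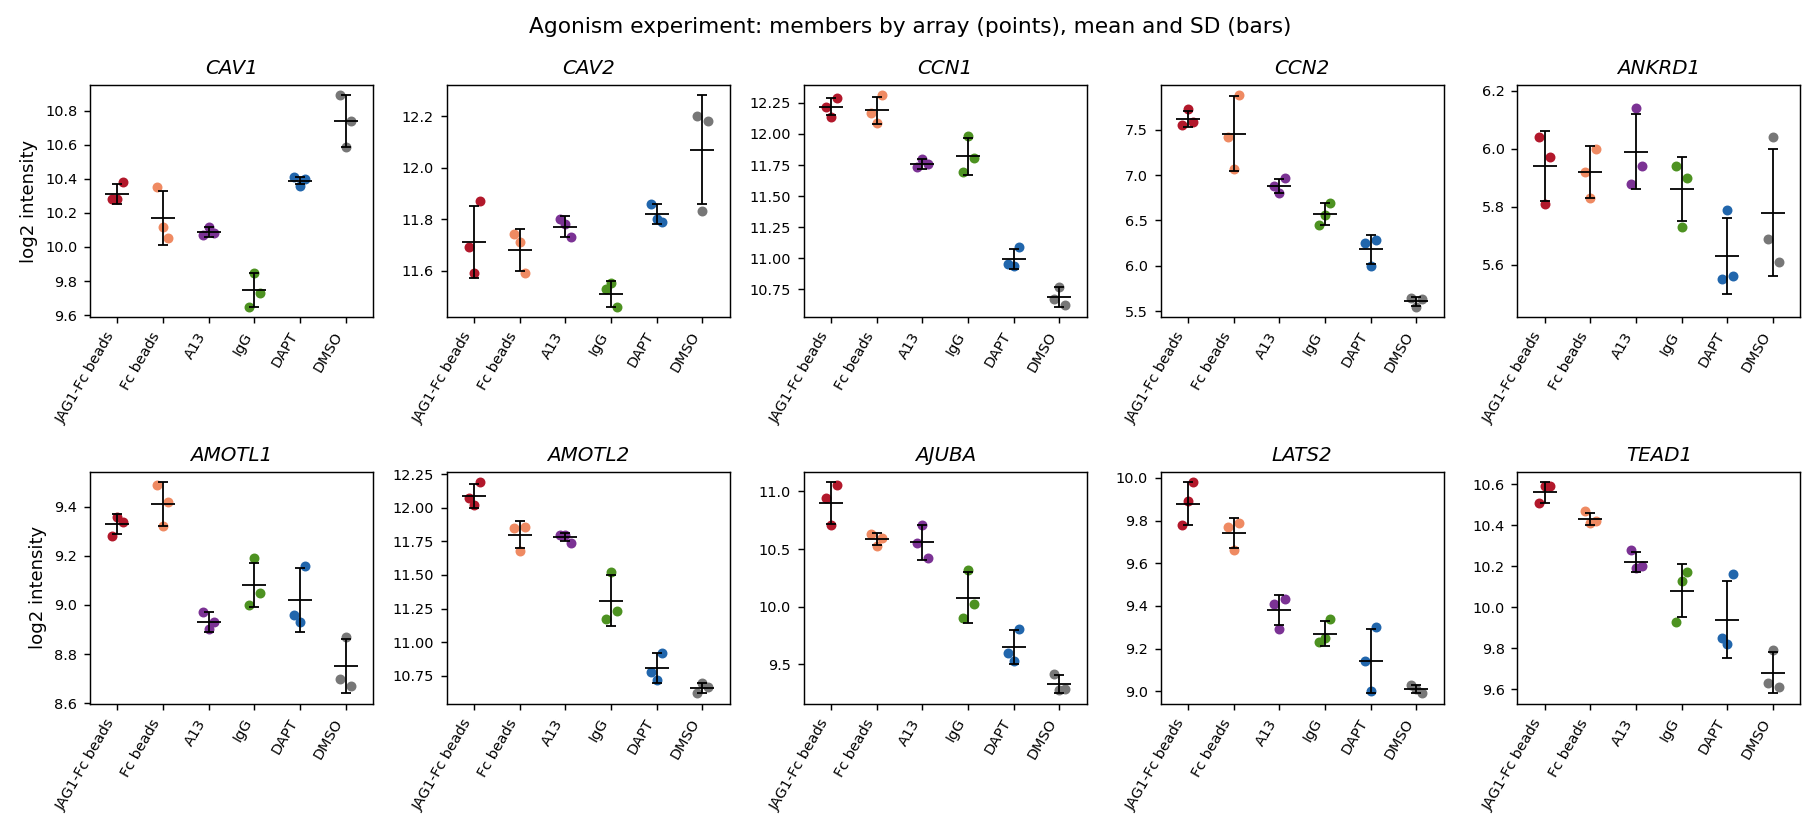
Log2 intensity (vertical axes, a separate scale for each gene) of the 10 genes in the 6 agonism groups, from JAG1-Fc beads on the left to DMSO on the right. Each point is an array, each dash the mean of 3 and each whisker the SD. CAV1 and CAV2 are lowest with IgG and highest in DMSO, while CCN2, AMOTL2 and AJUBA are highest with JAG1-Fc beads and lowest in DMSO.

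**Figure D2:**
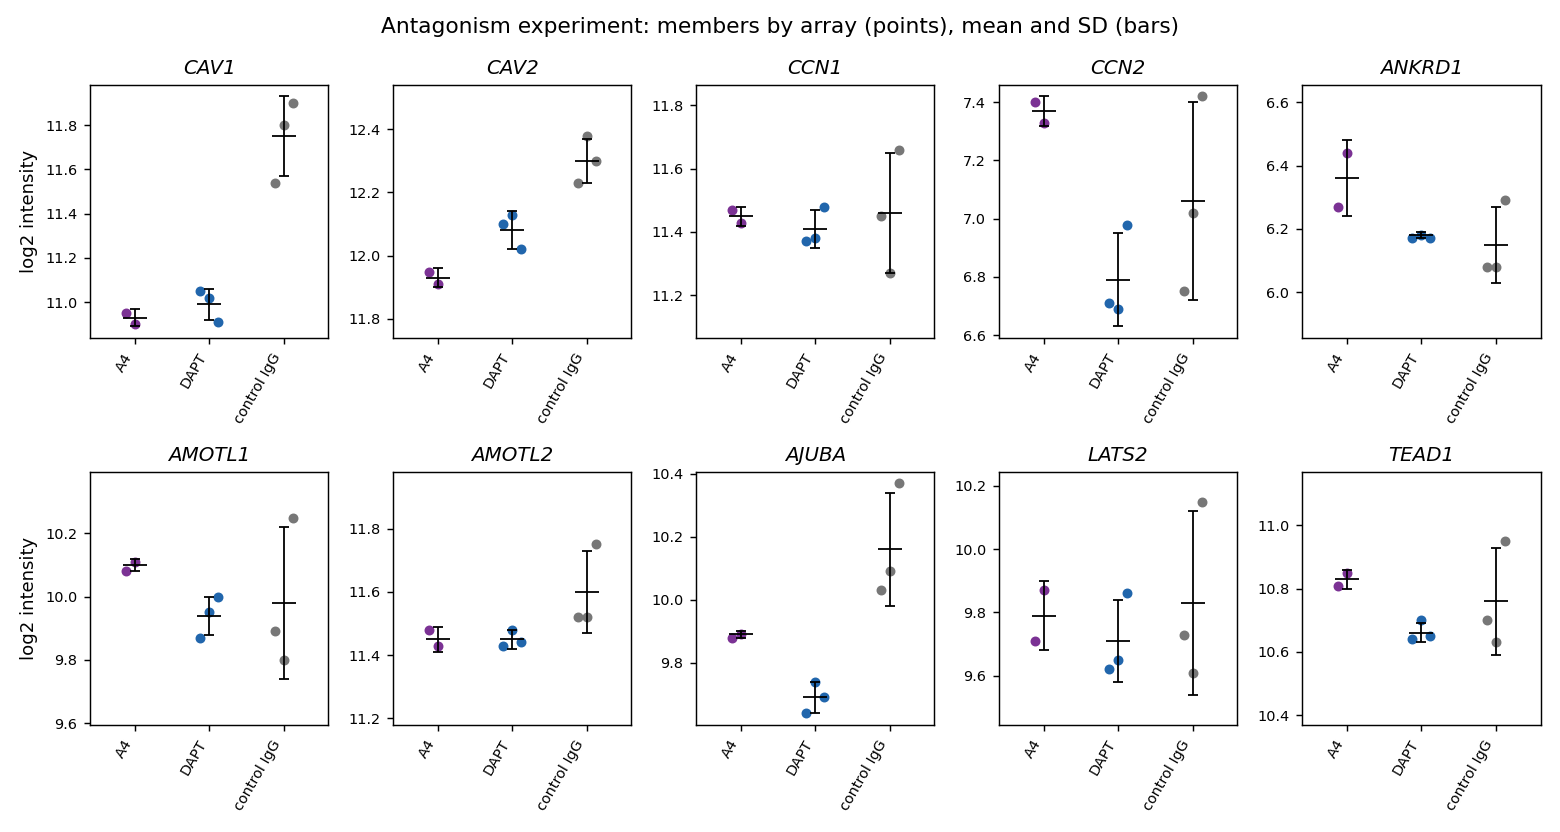
Log2 intensity (vertical axes, a separate scale for each gene) in cells treated with A4 (2 arrays), DAPT (3 arrays) and in control cells (3 arrays), with a point for each array, a dash for each mean and whiskers for the SD. The A4 and DAPT arrays of CAV1 lie between 10.90 and 11.05 and its control arrays between 11.54 and 11.90.

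The secreted matrix proteins CCN1 and CCN2 are among the most used readouts of YAP. In the agonism experiment CCN1 had 12.22, 12.14 and 12.29 with JAG1-Fc beads, 12.17, 12.09 and 12.31 with Fc beads, 11.73, 11.80 and 11.76 with A13, and 11.69, 11.98 and 11.81 with IgG. It had 10.95, 10.94 and 11.09 in DAPT and 10.67, 10.77 and 10.62 in DMSO. The arrays formed 4 levels that did not overlap: both bead groups, A13 with IgG, DAPT, and DMSO. CCN1 was lowest in DMSO, where CAV1 was highest, while in the Fc bead group both were above the IgG group. It rose by 0.31 ± 0.08 with DAPT over DMSO (adjusted p = 0.00771), by 0.83 ± 0.08 on washout over DAPT (adjusted p = 1.36e-06), and by 0.36 ± 0.08 with Fc beads over IgG (adjusted p = 0.0163). A13 over IgG gave -0.06 ± 0.08 (95% confidence interval -0.22 to 0.10) and JAG1-Fc over Fc beads 0.03 ± 0.08 (-0.13 to 0.19). The DAPT call was lost without DAPT array 3 (adjusted p = 0.0507). The Fc bead call was lost without IgG array 1 or 3 or Fc bead array 1 or 3 (adjusted p between 0.0578 and 0.119).

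CCN2 was dim, with group means at percentiles 14.2 to 46.7 of all genes, yet it spanned the widest range of the 10. It had 7.55, 7.73 and 7.59 with JAG1-Fc beads, 7.42, 7.07 and 7.88 with Fc beads, 6.88, 6.80 and 6.97 with A13, and 6.45, 6.56 and 6.69 with IgG. It had 6.25, 6.00 and 6.29 in DAPT and 5.64, 5.55 and 5.63 in DMSO. Only the bead groups overlapped, and the Fc bead arrays were the most scattered (SD 0.41). CCN2 was 1.85-fold higher with Fc beads than with IgG (0.89 ± 0.14, adjusted p = 0.00164), a call that held with each array left out in turn. It was higher in DAPT than in DMSO (0.57 ± 0.14, adjusted p = 0.0061) and in IgG than in DMSO (0.96). The DMSO mean of 5.61 lay at percentile 14.2, within the range of ANKRD1 and below PGR, and was not shown to be above background, so no fold is given against it. Washout over DAPT (0.39) and A13 over IgG (0.32 ± 0.14, adjusted p = 0.148) did not pass. JAG1-Fc over Fc beads was 0.17 ± 0.14 (adjusted p = 0.566), and passed without Fc bead array 3 (adjusted p = 0.0375). In the antagonism experiment CCN1 ranged from 11.27 to 11.66 over all 8 arrays, with no difference that passed. CCN2 had 7.40 and 7.33 with A4, 6.71, 6.69 and 6.98 with DAPT, and 6.75, 7.02 and 7.42 in control cells. The A4 arrays lay above all DAPT arrays and within the control range, and A4 over DAPT was 0.57 ± 0.17 (adjusted p = 0.6).

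ANKRD1, a stress-responsive ankyrin-repeat protein of muscle and other cells, was the dimmest member and lay below the lower quartile of genes in every group (percentiles 10.0 to 18.7). Group means ran from 5.63 in DAPT to 5.99 with A13 in the agonism experiment, and neighbouring groups overlapped throughout. A13 over DAPT passed (0.36 ± 0.10, adjusted p = 0.0145), but not without DAPT array 1 or 3 or A13 array 2 (adjusted p between 0.0614 and 0.0878). The window with 2 TEAD cores shown above thus belongs to a gene whose signal was near the bottom of the array.

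The angiomotin-like proteins AMOTL1 and AMOTL2 are scaffolds of cell junctions that bind YAP and hold it outside the nucleus. AMOTL2 had 12.07, 12.02 and 12.19 with JAG1-Fc beads, 11.85, 11.68 and 11.86 with Fc beads, 11.80, 11.80 and 11.74 with A13, and 11.17, 11.52 and 11.23 with IgG. It had 10.78, 10.72 and 10.92 in DAPT and 10.62, 10.70 and 10.67 in DMSO. Fc beads and A13 overlapped, and each other neighbouring pair of groups was separate. AMOTL2 rose by 0.50 ± 0.08 on washout over DAPT (adjusted p = 0.000822), by 0.49 ± 0.08 with Fc beads over IgG (adjusted p = 0.00376) and by 0.48 ± 0.08 with A13 over IgG (adjusted p = 0.00061), the last 2 against the same IgG arrays. These 3 calls held with each array left out. AMOTL2 was also the member that differed between JAG1-Fc and Fc beads (0.30 ± 0.08, adjusted p = 0.0364). That call was lost without JAG1-Fc array 1 or 3 or Fc bead array 1 or 2 (adjusted p between 0.0616 and 0.183) and with median centring (0.058).

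AMOTL1 was higher in both bead groups than in every other group. It had 9.28, 9.36 and 9.34 with JAG1-Fc beads, 9.49, 9.32 and 9.42 with Fc beads, 8.97, 8.90 and 8.93 with A13, and 9.00, 9.19 and 9.05 with IgG. It had 8.96, 8.93 and 9.16 in DAPT and 8.70, 8.87 and 8.67 in DMSO. The 6 bead arrays lay above the other 12. Fc beads over IgG gave 0.33 ± 0.07 (adjusted p = 0.0241) and DAPT over DMSO 0.27 ± 0.07 (adjusted p = 0.0126), while A13 over IgG was -0.15 ± 0.07 (adjusted p = 0.227). The Fc bead call was lost without array 1 or 3 of either group (adjusted p between 0.0714 and 0.142), and the DAPT call without DMSO array 1 or 3 or DAPT array 3 (0.0600 to 0.0891).

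AJUBA is a LIM-domain protein of junctions that binds and restrains the LATS kinases. It had 10.94, 10.71 and 11.06 with JAG1-Fc beads, 10.63, 10.53 and 10.60 with Fc beads, 10.55, 10.71 and 10.42 with A13, and 9.90, 10.32 and 10.02 with IgG. It had 9.60, 9.53 and 9.81 in DAPT and 9.42, 9.28 and 9.29 in DMSO. The order of the 6 means was the same as for AMOTL2 and CCN2, and again Fc beads and A13 were the neighbours that overlapped. AJUBA rose by 0.51 ± 0.11 with Fc beads (adjusted p = 0.0182) and by 0.48 ± 0.11 with A13 (adjusted p = 0.00493), both over IgG, and by 0.43 ± 0.11 on washout over DAPT (adjusted p = 0.0157). DAPT over DMSO gave 0.32 ± 0.11 (adjusted p = 0.0439). The A13 call held with each array left out. The Fc bead call was lost without array 1 or 3 of either group (adjusted p between 0.0615 and 0.130), the washout call without DAPT array 1 or 2 or IgG array 2 (0.0681 to 0.104), and the DAPT call without any DMSO array or DAPT array 1 or 3 (0.0604 to 0.215). JAG1-Fc over Fc beads was 0.32 ± 0.11 (adjusted p = 0.086), and passed without JAG1-Fc array 2 (adjusted p = 0.0411).

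In the antagonism experiment AJUBA had 9.88 and 9.89 with A4, 9.64, 9.74 and 9.69 with DAPT, and 10.03, 10.09 and 10.37 in control cells. The 3 groups did not overlap. The differences from control were -0.28 ± 0.10 with A4 (adjusted p = 0.44) and -0.48 ± 0.09 with DAPT (adjusted p = 0.0815), and the second passed without control array 2 (adjusted p = 0.0174).

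LATS2 is a kinase that phosphorylates YAP and so keeps it in the cytoplasm. It had 9.78, 9.89 and 9.98 with JAG1-Fc beads, 9.77, 9.66 and 9.79 with Fc beads, 9.41, 9.29 and 9.43 with A13, and 9.23, 9.25 and 9.34 with IgG. It had 9.14, 9.00 and 9.30 in DAPT and 9.03, 9.01 and 8.99 in DMSO. The 6 bead arrays were again above the other 12, which overlapped from group to group. Fc beads over IgG gave 0.46 ± 0.07 (adjusted p = 0.00192), which held with each array left out. A13 over IgG was 0.10 ± 0.07 (95% confidence interval -0.05 to 0.26, adjusted p = 0.434) and JAG1-Fc over Fc beads 0.14 ± 0.07 (-0.01 to 0.30).

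TEAD1, a DNA-binding partner of YAP, had 10.51, 10.59 and 10.59 with JAG1-Fc beads, 10.47, 10.41 and 10.42 with Fc beads, 10.28, 10.19 and 10.20 with A13, and 9.93, 10.13 and 10.17 with IgG. It had 9.85, 9.82 and 10.16 in DAPT and 9.63, 9.79 and 9.61 in DMSO. The bead arrays were above all others, and IgG and DAPT overlapped. Fc beads over IgG gave 0.36 ± 0.08 (adjusted p = 0.0312) and DAPT over DMSO 0.27 ± 0.08 (adjusted p = 0.0293). The first was lost without any Fc bead array or IgG array 1 (adjusted p between 0.0661 and 0.197), and the second without DMSO array 1 or 3 or DAPT array 3 (0.107 to 0.198).

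Only CCN2, ANKRD1 and AMOTL2 were read by a single probe set, and the other 7 had 2 to 4. A fit over all 41097 single-gene probe sets, added after the data were seen, gave their values. For IgG over DMSO both probe sets of CAV1 gave similar values (-0.99 and -0.97), as did the 3 of CAV2 (-0.56, -0.63 and -0.53), and CCN1 gave 1.14 and 1.37. For A13 over DAPT the CAV2 probe sets disagreed. The brightest gave -0.05 ± 0.09, and the others gave -0.38 ± 0.08 (adjusted p = 0.0012) and -0.31 ± 0.09 (adjusted p = 0.0149). For Fc beads over IgG the second CCN1 probe set gave 0.43 ± 0.12 (adjusted p = 0.0793). In the same comparison AJUBA gave 0.51, 0.46, 0.45 and -0.02, LATS2 0.46, 0.44, -0.02 and 0.13, and AMOTL1 0.33, 0.33, 0.05 and 0.12, each from its brightest to its dimmest probe set. TEAD1 gave 0.36, 0.51 and 0.43, of which only the brightest passed. For DAPT over DMSO the values, in the same order, were 0.32, 0.28, 0.22 and -0.06 for AJUBA, 0.27, 0.26, 0.04 and 0.05 for AMOTL1, and 0.27, 0.02 and 0.06 for TEAD1.

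**Figure D3:**
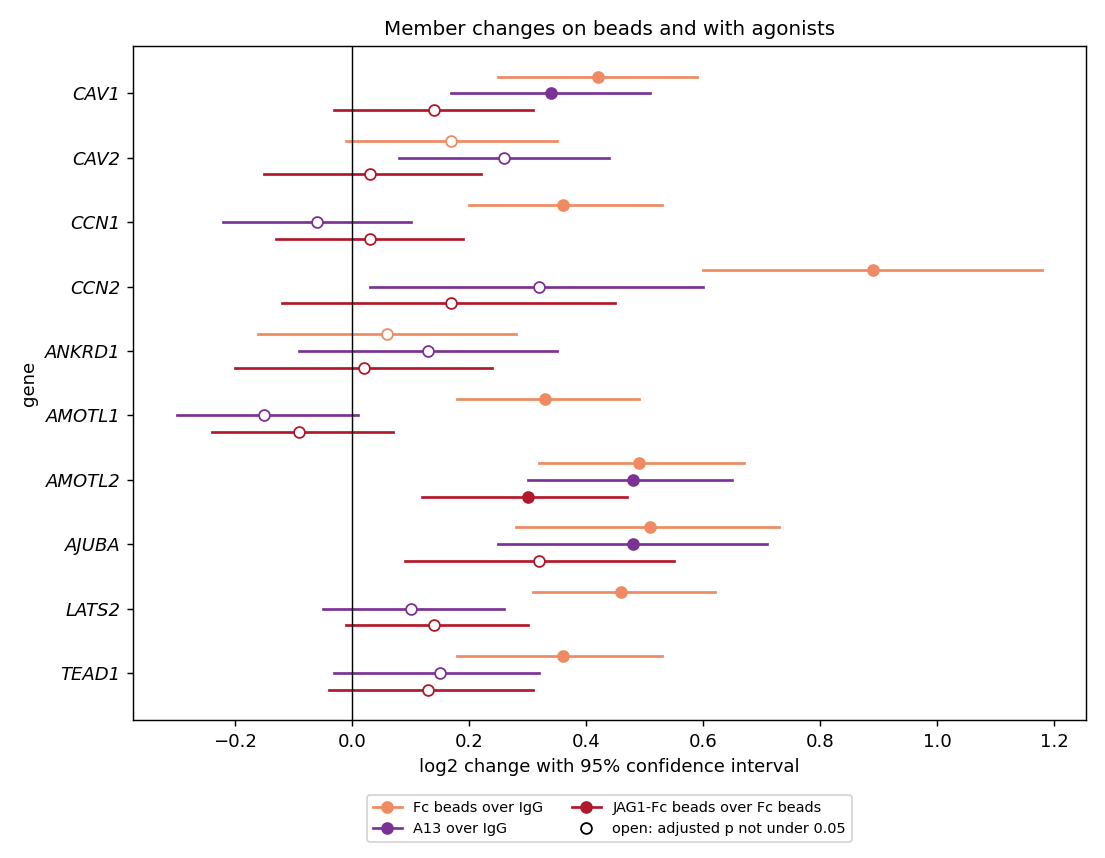
Changes of the 10 genes (rows) on the log2 scale, with 95% confidence intervals, for the bead and antibody comparisons in the agonism experiment. Filled points passed at an adjusted p under 0.05 and open points did not. For Fc beads over IgG, 8 genes are filled and higher, and for JAG1-Fc beads over Fc beads only AMOTL2 is.

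Most of the list was higher with plain Fc beads than with control IgG. With Fc beads over IgG, 8 of the 10 genes rose and 0 fell, where 1.64% of all genes were called higher and 0.44% lower (2.08% in all; 324 and 87 genes, or 302 and 198 with quantile normalization repeated). The median of the 10 changes was 0.39, against -0.01 over all genes, and CAV2 (0.17) and ANKRD1 (0.06) did not pass. Of 18 other YAP target genes, 8 rose and 0 fell, with a median of 0.30. They included NT5E (0.47), a cell-surface enzyme that makes adenosine, DOCK5 (0.45), an activator of Rac, the growth factor TGFB2 (0.45) and the stress gene GADD45B (0.39). Of 24 Hippo pathway genes only the kinase TAOK3 (0.47) and the scaffold SAV1 (0.37) rose. The co-activators gave 0.10 for YAP1 (adjusted p = 0.464) and -0.02 for WWTR1 (adjusted p = 0.93). Of the genes used to check the treatments, MYC also rose with Fc beads (0.44 ± 0.07, adjusted p = 0.0026), while NOTCH3 and HES1 did not pass. CD14 fell (-0.33). Bead groups and IgG also differ in the antibody, so bead and antibody cannot be told apart here. The count of 8 was 3 without Fc bead array 1 or IgG array 1, 4 without Fc bead array 3, 5 without IgG array 3, and 1 (LATS2) in a fit of these 6 arrays alone.

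JAG1-Fc beads over Fc beads, the comparison of the ligand itself, called 1 of the 10 genes (AMOTL2, higher), where 2.97% of all genes were higher and 5.14% lower (8.11% in all). Of the other YAP targets THBS1 (0.64), a matrix protein, and the phosphatase PTPN14 (0.34) rose and NT5E fell (-0.62). Among the Hippo genes WWTR1 (0.35) and the kinase LATS1 (0.36) rose, and VGLL1 (-0.60) and VGLL4 (-0.20), cofactors that bind TEAD, fell. With A13 over IgG 3 of the 10 rose (AMOTL2, AJUBA and CAV1) and 0 fell, where 5.68% of all genes were higher and 9.02% lower (14.7% in all). That count was 3 with each array left out. Of the other YAP targets 5 rose and 3 fell, led by NT5E (-1.18), FJX1 (0.52), GADD45B (-0.40) and THBS1 (0.37). VGLL1 (-0.93), LATS1 (0.49), the TEAD factor TEAD3 (-0.32) and WWTR1 (0.26) led the Hippo genes, of which 2 rose and 3 fell.

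The effects of the 2 agonists, each over its own control, were compared directly. Of the 10 genes 0 differed by limma, and 0 had an unadjusted p under 0.05. Of all genes 0.182% were called, 0.116% with the higher and 0.0657% with the lower signed change for JAG1-Fc beads. The difference of effects ran from -0.23 ± 0.12 for CAV2 to 0.09 ± 0.11 for CCN1. The intervals are wide, -0.56 to 0.26 for CCN2, so like effects are not shown. The agonist groups themselves did differ. JAG1-Fc beads over A13 called 6 of the 10 higher and 0 lower, where 4.72% of all genes were higher and 1.64% lower (6.37% in all; 934 and 325 genes, or 798 and 641 with quantile normalization repeated), and 8 of the 18 other YAP targets were higher and 0 lower. CCN2 (0.74, adjusted p = 0.00313), LATS2 (0.50, adjusted p = 0.000418), CCN1 (0.45, adjusted p = 0.00153), AMOTL1 (0.39, adjusted p = 0.00351), TEAD1 (0.34, adjusted p = 0.0203) and AMOTL2 (0.31, adjusted p = 0.0327) were the 6. This comparison sets beads against an antibody, and bead and ligand cannot be told apart in it. TEAD1 lost its call without JAG1-Fc array 2 or 3 or A13 array 2 or 3 (adjusted p between 0.0667 and 0.0800). AMOTL2 lost it without JAG1-Fc array 1 or 3 or any A13 array (0.0637 to 0.147), and with median centring (0.0532). With the mean of a gene's probe sets AMOTL1 (0.20, adjusted p = 0.0884) and TEAD1 (0.32, adjusted p = 0.0978) were not called. The LATS2 probe sets gave 0.50, 0.43, 0.11 and 0.02, from the brightest to the dimmest. AJUBA (0.35 ± 0.11, adjusted p = 0.067) passed without JAG1-Fc array 2 (adjusted p = 0.0369).

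**Figure D4:**
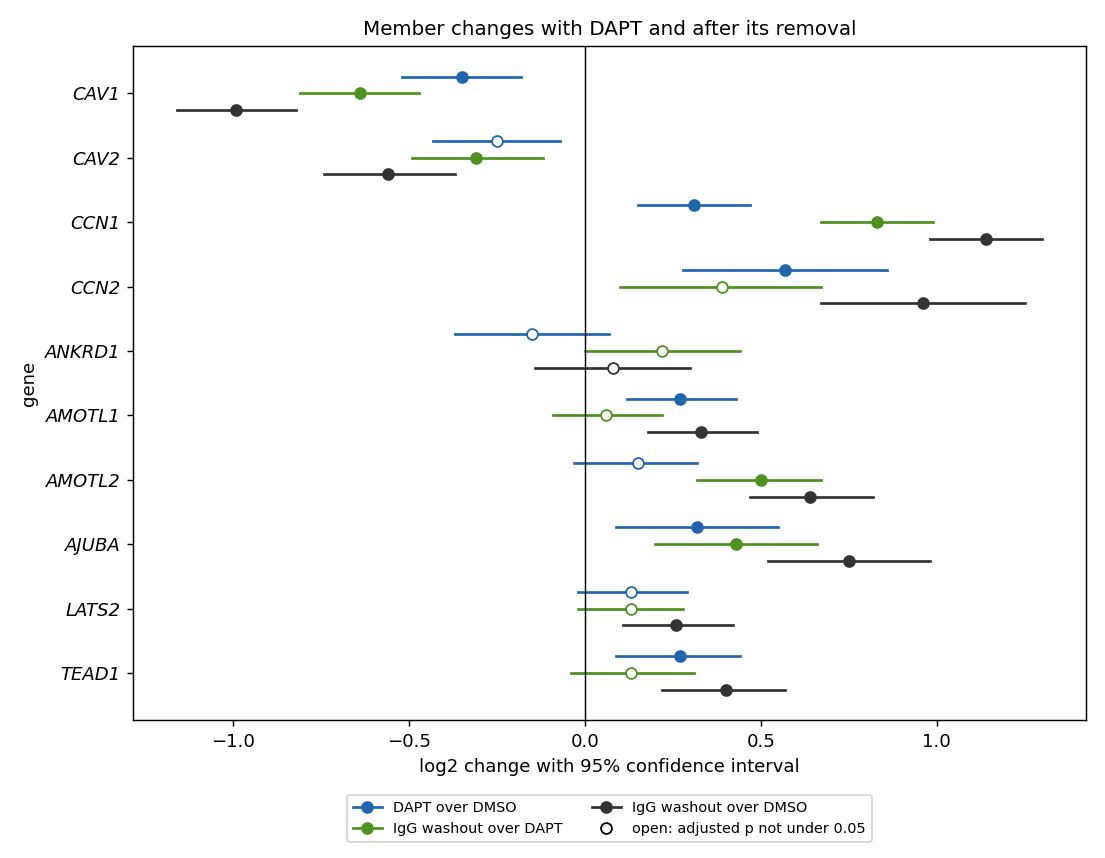
Changes of the 10 genes (rows) on the log2 scale, with 95% confidence intervals, for DAPT over DMSO, IgG washout over DAPT and IgG washout over DMSO. Filled points passed at an adjusted p under 0.05. Both caveolins lie left of 0 in all 3 comparisons and CCN1 and AJUBA lie right of 0 in all 3.

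Continued DAPT against DMSO raised 5 of the 10 genes (CCN2, AJUBA, CCN1, AMOTL1 and TEAD1) and lowered CAV1, where 12.4% of all genes were higher and 8.31% lower (20.7% in all). With the mean of a gene's probe sets, AJUBA (0.19, adjusted p = 0.104), AMOTL1 (0.16, adjusted p = 0.102) and TEAD1 (0.12, adjusted p = 0.525) lost their calls. The count of 6 was 2 without DAPT array 3 and 3 without DMSO array 1 or 3. Of the other YAP targets 5 rose and 1 fell, led by NT5E (0.72), TGFB2 (0.58), EDN1 (0.58), which encodes endothelin, and F3 (0.46), the tissue factor of clotting. Of the Hippo genes 8 rose and 0 fell, led by VGLL1 (0.49), TEAD3 (0.36), WTIP (0.34), a relative of AJUBA, and SAV1 (0.29). Of 10 other caveola coat proteins CAVIN1 (0.47), which forms the outer coat, EHD1 (0.35) and PACSIN2 (0.32) rose while CAV1 fell.

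IgG washout over continued DAPT raised CCN1, AMOTL2 and AJUBA and lowered CAV1 and CAV2, 5 of the 10, where 4.15% of all genes were higher and 5.62% lower (9.77% in all). The count was 3 without DAPT array 1 or 2 or IgG array 2, and 4 without any of the other 3 arrays. CAVIN1 fell as well (-0.69) and PACSIN3 rose (0.36). Of the other YAP targets 2 rose and 4 fell, with EDN1 at -0.65, GADD45B at 0.45, FJX1 at 0.42 and NT5E at -0.33, so the list did not follow CCN1. Of the Hippo genes 3 rose and 2 fell. Against DMSO the IgG group had 7 of the 10 higher and 2, the caveolins, lower, where 17.9% of all genes were higher and 12.6% lower (30.6% in all), with ANKRD1 not passing. TEAD1 (0.40) lost its call there with the mean of its probe sets (0.05, adjusted p = 0.793). Both the washout and the DAPT comparisons rest on the same DAPT and DMSO arrays, and the IgG group differs from DMSO in prior DAPT, in IgG, and in the vehicle and its addition after 22 h, which cannot be told apart. From continued DAPT it differs in IgG as well as in the inhibitor and its later addition. Likewise A13 over DAPT had 7 higher (AMOTL2 0.97, AJUBA 0.91, CCN1 0.77, CCN2 0.70, ANKRD1 0.36, TEAD1 0.28 and LATS2 0.23) and CAV1 lower, where 12% of all genes were higher and 16.2% lower (28.2% in all). With the mean of a gene's probe sets CAV2 (-0.05) passed (-0.24, adjusted p = 0.0127) and TEAD1 did not (0.25, adjusted p = 0.0989). In the fit over all single-gene probe sets, no other LATS2 or TEAD1 probe set passed, and the second CAV1 probe set gave -0.22 (adjusted p = 0.052). The second CCN1 probe set passed there (0.82, adjusted p = 3.35e-05), and of the AJUBA probe sets only the dimmest did not. The count of 8 was 5 without DAPT array 1. Without DAPT array 2 or A13 array 1, TEAD1 and LATS2 were not called (adjusted p between 0.0646 and 0.136), nor were they without DAPT array 1 (0.0576 and 0.0801), and LATS2 was not without A13 array 3 (0.0822).

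In the antagonism experiment 1 of the 10 genes, CAV1, was called with DAPT (0.354% of all genes, 0.202% higher and 0.152% lower) and with A4 (0.101%, 0.0455% higher and 0.0556% lower), while 3 members reached an unadjusted p under 0.05 in each. Of the other YAP targets 0 of 18 passed by limma with either, with 4 and 5 at an unadjusted p under 0.05. Of the caveola coat proteins 0 of 10 passed, with 0 at that unadjusted p. Without control array 2, DAPT called 1198 genes, among them 2 members (CAV1 and AJUBA). The SD of the log2 difference of that array from its replicates was 0.25 and 0.32, against 0.16 between control arrays 1 and 3. Few calls here thus do not show that few genes changed. A4 over DAPT called 0 of 19775 genes (0%), with 1628 at an unadjusted p under 0.05, 1 of them a member, CCN2. The difference between the DAPT effects of the 2 experiments was tested in a fit of all 26 arrays. It passed for AJUBA (-0.79 ± 0.15, adjusted p = 0.00551), with -0.48 in the antagonism and 0.32 in the agonism experiment, and for CCN2 (-0.84 ± 0.22, adjusted p = 0.0262), with -0.27 and 0.57. Those are 2 of 10, where 6.12% of all genes were called (2.85% with the higher and 3.27% with the lower effect in the antagonism experiment). For CAV1 the difference was -0.40 (adjusted p = 0.0522), with a fall in both. The CCN2 call was lost without antagonism DAPT array 1 or 2, control array 3, agonism DAPT array 3, or DMSO array 1 or 3 (adjusted p between 0.0591 and 0.0779). Without control array 2, CCN1 (adjusted p = 0.0139), AMOTL1 (0.0300) and TEAD1 (0.0245) passed as well, without DMSO array 2 CCN1 (0.0448) and TEAD1 (0.0327) did, and without control array 1 CAV1 did (0.0270). The experiments differ in plating density, in total time with DAPT, in washing, in the addition after 22 h and in IgG. Their arrays differ too, with medians of 7.60 to 7.65 for antagonism and 6.84 to 6.88 for agonism. The SD of log2 intensity within an array was 1.95 to 2.01 for antagonism and 2.23 to 2.3 for agonism. These differences cannot be told apart.

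**Figure D5:**
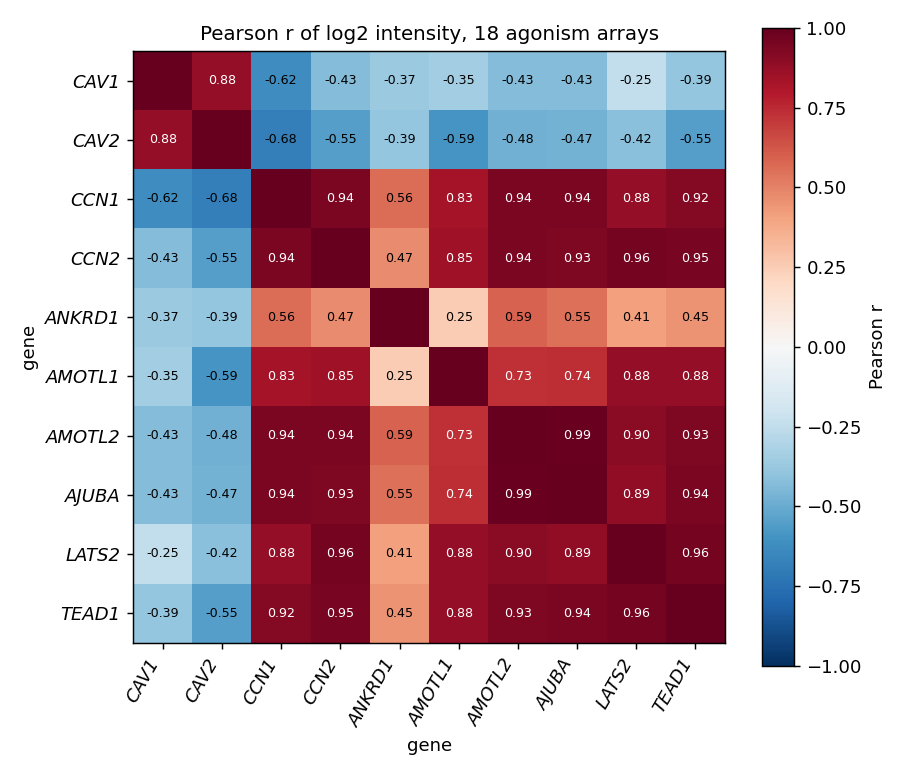
Pearson r between the log2 intensities of each pair of the 10 genes over the 18 agonism arrays (both axes list the genes, and colour gives r). AMOTL2 with AJUBA (0.99) and CCN1 with CCN2 (0.94) are the paired regulators and the paired secreted proteins, CAV1 goes with CAV2 (0.88), and CAV1 runs from -0.62 to -0.25 against the other 8.

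Across the 18 agonism arrays, which form 6 groups of 3 and share their normalization, the caveolins stood apart from the YAP-linked genes. Of the latter, ANKRD1 went least with the others, at r = 0.25 (AMOTL1) to 0.59 (AMOTL2). The others had r of 0.73 to 0.99 with each other. AMOTL2 and AJUBA correlated at r = 0.99, CCN1 and CCN2 at 0.94, and CAV1 and CAV2 at 0.88 (0.93 over the 8 antagonism arrays), while CAV1 ran at -0.62 to -0.25 with the 8 YAP-linked genes. Over the 8 antagonism arrays that split was not seen, since CAV1 had r = 0.87 with AJUBA, 0.81 with AMOTL2 and 0.29 with LATS2, and -0.36 with ANKRD1. These values describe the order of the group means and carry no test. Among 9886 other genes above the median level, those most like CAV1 over these arrays were IGFL1 (r = 0.926), ZNF136 (0.908), ANXA1 (0.896), SMAD5 (0.889) and CAV2 (0.883). Those most like CCN1 were TRIB3 (0.991), UBALD2 (0.988), AARS1 (0.985), CEBPB (0.981) and PCK2 (0.979), none of them a gene of the YAP or Hippo lists used here. The genes most opposite to CCN1 included MOB1A (r = -0.973), which is in the Hippo list and was singled out after its values were seen.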

How the data were processed

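Total RNA of MDA-MB-468 cells was hybridised to 26 arrays, 1 column each in the deposited table. Per the submitters' processing notes the authors used RMA and R 2.10. The deposited values are on a linear intensity scale (7.12 to 32597) and were converted to log2, although the test plan had assumed log2 values. RMA corrects background, equalises the distributions of arrays and summarises probes, and gives no detection calls. Of 54675 probe sets, 41097 had 1 gene name in the platform annotation, 1801 several and 11777 none, and 41043 matched the gene table, with 0 names changed. The brightest single-gene probe set (mean over 26 arrays) stood for each of 19775 genes, with no filter on dim genes. The table held 0 columns of other samples.

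Limma 3.58.1 (R 4.3.3; lmFit, contrasts.fit, eBayes) fitted all groups of an experiment together, with 5 residual degrees of freedom in the antagonism experiment, and all 26 arrays for differences of effects. On simulated data for DAPT against DMSO, over 19775 genes with 200 changed, it recovered 85% of changes of 0.5 and 100% of changes of 1 (log2). It also made 16 false calls, and the antagonism fit was not simulated. The real comparison called 4089 genes, and changes smaller than 0.5 were not simulated, so these rates need not hold for the data. The genes named were the 10 members, at most 4 passing genes a list and comparison (by size of change), the 5 genes most like CAV1 and CCN1, and NOTCH3, MYC and HES1. The members and lists were chosen with earlier results of these data known. The SD of the log2 difference between replicate arrays was 0.13 to 0.32, with no duplicates. Alternatives were median centring, repeated quantile normalization, the mean of probe sets, no _x_at or _s_at probe sets, genes above the median level, the compared groups alone, each array left out, and, added after the data were seen, each other probe set of a member. The number of arrays limits the precision.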

Additional observations from a re-analysis of the deposited data

Results flagged for a closer look

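For these genes the DAPT effect in the antagonism experiment minus that in the agonism experiment passed in a limma test of the difference itself. Among the members these were AJUBA (-0.79, adjusted p = 0.00551) and CCN2 (-0.84, adjusted p = 0.0262). Among other YAP target genes F3 (-0.47), NT5E (-0.52) and TGFB2 (-0.63) had the lower effect in the antagonism experiment and CCDC80 (0.36) the higher. The Hippo pathway genes TEAD4 (-0.30), SAV1 (-0.37) and WTIP (-0.36) and the caveola coat genes CAVIN1 (-0.63) and PACSIN2 (-0.39) had the lower effect there too. For these 9 the adjusted p ran from 0.00401 to 0.0484, and the cause was not tested. NT5E also differed between the agonists, with a JAG1-Fc bead effect 0.56 above the A13 effect (adjusted p = 0.0215), since it changed by -0.62 with JAG1-Fc beads over Fc beads and by -1.18 with A13 over IgG.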

How the results depend on the processing

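No member that passed changed sign when the scaling, the genes tested or the arrays used were varied. Among probe sets added after the data were seen, AJUBA turned to -0.06 (DAPT over DMSO), -0.02 (A13 over IgG) and -0.02 (Fc beads over IgG), TEAD1 to -0.31 (IgG over DMSO), LATS2 to -0.02 (Fc beads over IgG) and AMOTL1 to -0.06 (JAG1-Fc beads over A13), and none of these passed. No paired analysis was possible because the labels give no replicate numbers.

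Repeated quantile normalization called 169 genes and 2 members for antagonism DAPT, 53 genes for A4 and 2 members for JAG1-Fc over Fc beads. Median centring called 0 members for JAG1-Fc over Fc beads and 18 genes for the difference of agonist effects, and shifted the median of all genes by at most 0.018. The mean of probe sets called 22 genes for the difference of agonist effects. Without _x_at and _s_at probe sets the genes called were 41 (antagonism DAPT), 1203 (IgG over DAPT), 1862 (A13 over IgG), 968 (JAG1-Fc over Fc beads, with 0 members), 208 (Fc beads over IgG), 831 (JAG1-Fc beads over A13), 514 (difference of DAPT effects) and 8 (difference of agonist effects). With genes above the median level they were 261, with 2 members (antagonism DAPT), 108, with 2 members (A4), 843 (Fc beads over IgG), 1993, with 4 members (difference of DAPT effects) and 70 (difference of agonist effects), and JAG1-Fc over Fc beads had 2 members. With the compared groups alone, and so fewer arrays, they were 18, with 0 members (antagonism DAPT), 0, with 0 members (A4), 2532 (DAPT over DMSO), 1141 (IgG over DAPT), 907, with 0 members (JAG1-Fc over Fc beads), 61, with 1 member (Fc beads over IgG), 72, with 1 member (difference of DAPT effects) and 12 (difference of agonist effects), and A13 over IgG had 5 members.

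With 1 array left out, genes called ran from 11 to 1198 (antagonism DAPT; members 0 to 2), 0 to 96 (A4; 0 to 1), 2585 to 4975 (DAPT over DMSO; 2 to 6), 1054 to 1793 (IgG over DAPT; 3 to 4), 4462 to 6682 (IgG over DMSO; 9), 2116 to 2611 (A13 over IgG; 3), 897 to 1447 (JAG1-Fc over Fc beads; 0 to 2), 141 to 361 (Fc beads over IgG; 3 to 8), 4727 to 5106 (A13 over DAPT; 5 to 7), 584 to 1006 (JAG1-Fc beads over A13; 4 to 6), 326 to 2828 (difference of DAPT effects; 1 to 5) and 10 to 28 (difference of agonist effects). Except where an alternative tests fewer genes or arrays, the cause was not tested.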

Other observations

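The log2 signal of the GAPDH control probe sets at the 3′ end minus that at the 5′ end lay between -0.17 and -0.12 in the agonism groups and between 0.01 and 0.14 in the antagonism groups.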
